A study of Caenorhabditis elegans with 2 samples.

Results

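The genes that decide sex and equalise X expression in the worm Caenorhabditis elegans were examined for peaks of CEH-16, the worm engrailed homeodomain protein. The list holds 10 named genes of the 19973 nuclear protein-coding genes in Ensembl annotation of WBcel235, the assembly also called ce11: xol-1, sex-1, sdc-1 and sdc-2 on X, dpy-27, dpy-28 and tra-1 on III, and sdc-3, dpy-21 and her-1 on V. They were chosen by name with the pooled signals and the thresholded list of these libraries in view, so the peaks are described and not tested. A peak was given to a gene when its summit, the position of highest signal in the peak, lay in the gene body or up to 5000 bp upstream of the gene start, and that span is called the window.

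The data came from chromatin immunoprecipitation and sequencing of whole L3 larvae, recorded as males and females pooled, in 1 group of 2 biological replicates. The worms were strain OP82, which carries unc-119(tm4063) III and the transgene wgIs82, with CEH-16 joined at its C terminus to GFP and FLAG. There was no second genotype, stage or treatment to compare with, and the sources used here do not name the promoter of the fusion. Cells of all types were mixed and the sexes were not separated, so no peak can be assigned to a cell type or a sex. The share of each sex among the worms is not known here. In this material the authors listed 19150 peaks for replicate 1, 30000 for replicate 2, 30000 for the pooled replicates and 214 after thresholding by the irreproducible discovery rate (IDR), which scores how well peak ranks repeat between replicates. Of the 214 thresholded peaks 189 were nuclear and 25 mitochondrial, and ranks count both kinds unless called nuclear. Peaks are described by the authors' own signal per peak, whose scale is not stated, and by their rank within a list. Read numbers are not part of the lists, and the depth of each library is unknown.

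In C. elegans the number of X chromosomes relative to autosomes sets the activity of xol-1, a switch gene whose product promotes male development. In animals with a pair of X chromosomes xol-1 is held low, partly by the nuclear hormone receptor SEX-1, and SDC-2 is made. SDC-2, with the zinc-finger proteins SDC-1 and SDC-3, brings the dosage compensation complex to X, where the condensin subunits DPY-27 and DPY-28 and the histone demethylase DPY-21 lower transcription. The same SDC proteins repress her-1, which encodes a secreted male-promoting signal, and the pathway ends in tra-1, which encodes a zinc-finger transcription factor of the GLI family. Recruitment elements on X are known for a motif enriched on X, which contains the word GCGCAGGG.

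The DNA under the strongest peak of the list, upstream of xol-1, is shown because it holds that word on both strands. The stretch is chrX:8036262-8036561 on the plus strand of ce11, with the summit at X 8036412, and capitals mark the 9-base word CGCGCAGGG or its reverse complement. The longer word was chosen after this sequence was seen.
xol-1 upstream peak: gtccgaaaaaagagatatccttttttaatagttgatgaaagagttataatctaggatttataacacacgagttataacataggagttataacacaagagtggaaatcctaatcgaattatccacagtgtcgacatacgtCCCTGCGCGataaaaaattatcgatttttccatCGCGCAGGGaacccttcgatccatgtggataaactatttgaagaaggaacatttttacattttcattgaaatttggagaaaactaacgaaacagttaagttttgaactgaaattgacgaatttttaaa

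The other strong peak of the list lay upstream of dpy-28 on III, and 101 bases centred on its summit are printed beside those of the highest peaks of dpy-21 and sex-1 for comparison. They span chrIII:10759199-10759299, chrV:17951204-17951304 and chrX:10203257-10203357, all on the plus strand of ce11, and all sequences are from the WBcel235 assembly at RefSeq. Capitals mark TAAT, the core bound by homeodomain proteins, in the sex-1 stretch. The dpy-28 and dpy-21 stretches hold none of the 6 words searched, neither those of the X motif, of homeodomain sites and of the TRA-1 site nor the GA repeat.
dpy-28 upstream peak: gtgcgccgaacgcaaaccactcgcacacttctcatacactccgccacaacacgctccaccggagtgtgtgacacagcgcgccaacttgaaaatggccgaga
dpy-21 upstream peak: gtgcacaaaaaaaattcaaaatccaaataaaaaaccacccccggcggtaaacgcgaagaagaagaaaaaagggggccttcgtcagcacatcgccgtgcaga
sex-1 gene body peak: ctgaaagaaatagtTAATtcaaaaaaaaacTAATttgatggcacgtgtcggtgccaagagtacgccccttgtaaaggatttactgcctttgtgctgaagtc

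All 10 genes had a summit in their window in each of the relaxed lists, and 2 of them, xol-1 and dpy-28, had a thresholded peak. That was 1 of the 4 listed genes on X and 1 of the 6 on autosomes, while a thresholded summit fell in the window of 1.8% of all 19973 genes, of 1.9% of the 2731 genes on X and of 1.79% of the 17242 autosomal genes. A pooled summit was present for 86.7% of all genes, a replicate 1 summit for 74.9% and a replicate 2 summit for 87.1%, so a peak in a relaxed list marked most genes. The listed windows had a median of 12916 bp, against 7027 bp for all genes, and a longer window can hold more summits. Because the genes were chosen with these lists known, nothing is read from the thresholded count. Both thresholded summits lay in the distal part of the upstream window, and with windows of 2000 bp upstream no listed gene had a thresholded peak.

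**Figure D1:**
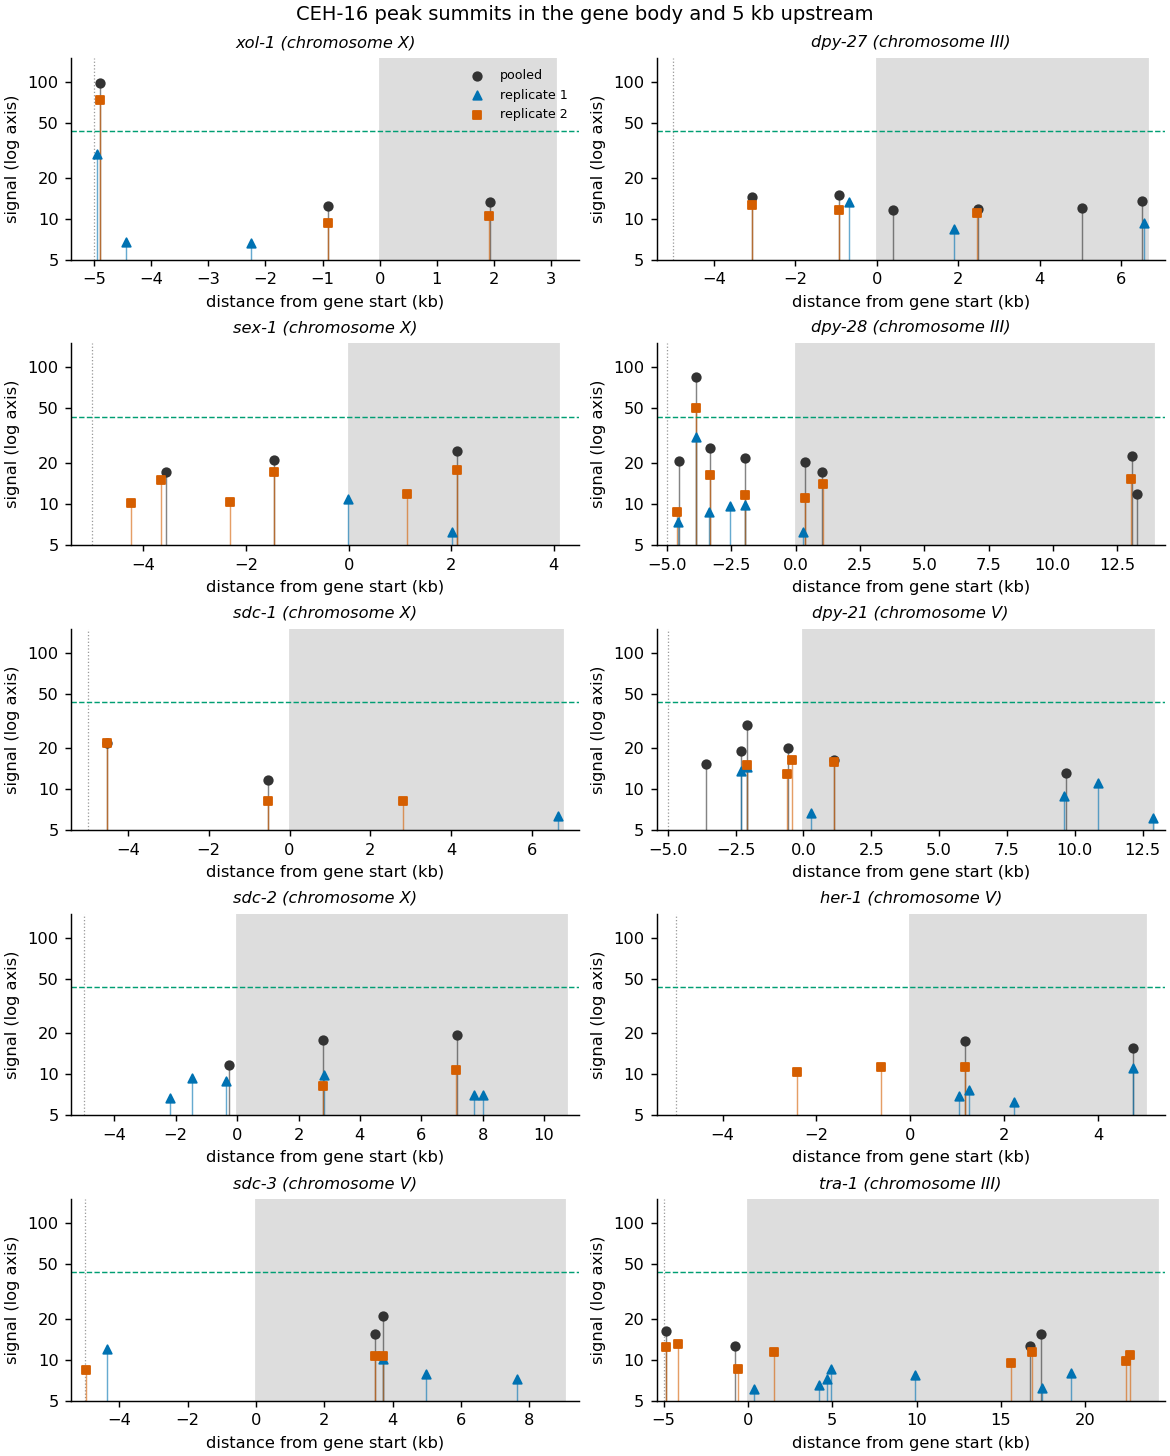
Summits in the windows of the 10 genes, with distance from the gene start in kb on the x axis (negative is upstream, grey is the gene body, the dotted line marks 5 kb upstream) and the authors' peak signal on a log y axis, for pooled replicates (circles), replicate 1 (triangles) and replicate 2 (squares). The dashed line is the lowest thresholded pooled signal, 43.6, and the pooled circles above it are those of xol-1 at 98.2 and dpy-28 at 84.8.

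The switch gene xol-1 (WBGene00006962, X from 8041313 to 8044409, plus strand) had the strongest peak of the list. The peak spans X from 8036237 to 8036586, and its summit lay 4901 bp upstream of the gene start, outside every protein-coding gene. Its signal was 98.2 in the pooled list, 29.8 in replicate 1 and 74.0 in replicate 2, at ranks 36, 73 and 26 of the lists. It was thus near the top of each list. The replicate 2 summit was at the same base as the pooled one and the replicate 1 summit was 51 bp away. Among nuclear thresholded peaks it ranked 11 of 189, and among those on X it ranked 9 of 43. No other protein-coding window held this summit, and xol-1 was the nearest protein-coding start, but the ncRNA gene C18A11.13 lay 262 bp away.

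Nearer to xol-1 the signal was low. A pooled summit 913 bp upstream had a signal of 12.3 (rank 25839) with 9.24 in replicate 2, and one in an exon 1936 bp downstream of the start had 13.3 (rank 21316) with 10.5 in replicate 2. Replicate 1 had neither within 200 bp, and its own further summits lay 4445 and 2245 bp upstream at 6.77 and 6.69. Both summits were therefore in the lower part of the pooled list, whose lowest signal was 11.5. A stronger summit lay 805 bp beyond the 3' end of xol-1 at 27.6 (rank 1289), outside the window and 304 bp from the start of C18A11.4.

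The distant xol-1 peak carries copies of the word CGCGCAGGG on opposite strands. The copy on the minus strand occupies X from 8036401 to 8036409, and the copy on the plus strand X from 8036434 to 8036442, with 24 bases between them. Relative to the pooled summit they start at -11 and 22 bp. This arrangement was rare in the genome: of 77 nuclear sites of the 9-base word, this was the only pair on opposite strands within 100 bp, and the search was made after the pair was seen. The 8-base word GCGCAGGG formed 3 such pairs among 314 nuclear sites. The other pairs of it lie on IV and V, and neither had a pooled summit within 200 bp.

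The word was also found at other strong X peaks. Searched on both strands within 50 bp of the summit, GCGCAGGG was at 1 of 39 pooled summits of the listed genes (2.56%), the xol-1 one, and at 0.0567% of all 29975 nuclear pooled summits. It was at 7 of 43 thresholded summits on X (16.3%) and at 0 of 146 thresholded summits on autosomes, which allows a share of up to 2.05%. Within 25 bp it was at 4 of 43 on X (9.30%) and 0 of 146 on autosomes, and within 100 bp at 11 of 43 (25.6%) and 1 of 146. Among the other pooled summits it was at 3 of 5714 on X and 7 of 24072 on autosomes. The 7 X peaks had pooled signals of 68.4 to 148 and included the pair ranked 1 and 2 among nuclear peaks. These counts describe the summits and were not tested, because the words were chosen with results of these data known, and all limits and intervals given cover counting error only.

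Counted from the genome, X held 33 sites of CGCGCAGGG, of which 13 (39.4%) lay within 200 bp of a thresholded summit. The autosomes held 44 sites, of which 0 did, a share of up to 6.82% at this number. For the 8-base word the counts were 16 of 81 on X and 1 of 233 on autosomes. Within the windows of the listed genes the 8-base word occurred 3 times, as both copies at xol-1 and as 1 copy in an intron of her-1, 1980 bp downstream of its start. The her-1 copy had no pooled summit nearer than 804 bp. A match of letters does not show which protein was bound.

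**Figure D2:**
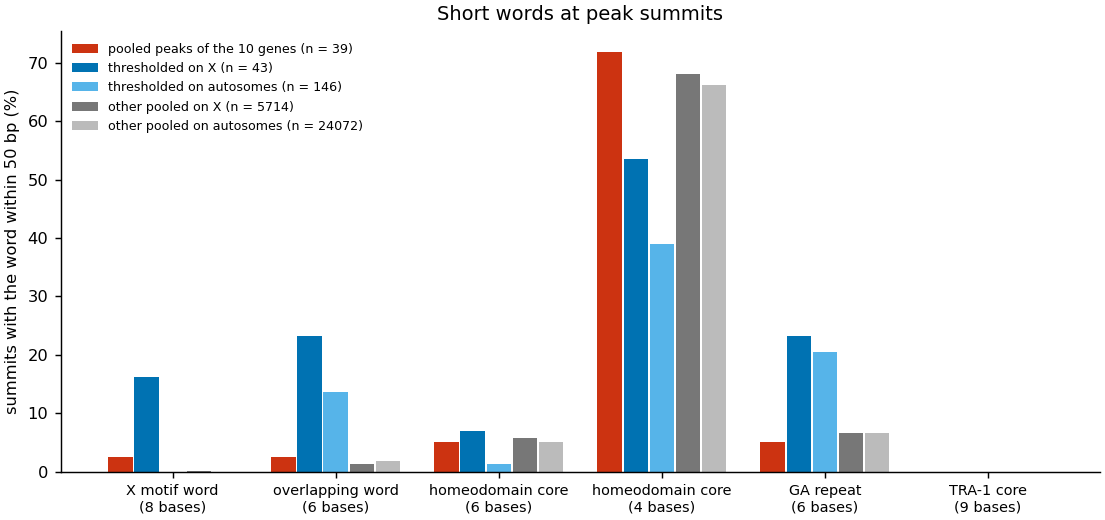
Share of summits, in percent on the y axis, with each searched word within 50 bp on either strand, for pooled peaks of the 10 genes, thresholded peaks on X and on autosomes, and the other pooled peaks on X and on autosomes. The 8-base word GCGCAGGG of the motif enriched on X was at 16.3% of thresholded X summits and at 0 of 146 thresholded autosomal summits.

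Homeodomain words were about as frequent at these summits as in the whole pooled list. TAATTA lay within 50 bp of 2 of the 39 pooled summits, 1 of sdc-1 and 1 of dpy-28, a share of 5.13%, against 5.24% of all nuclear pooled summits, and within 100 bp of 5 of 39 (12.8%), against 10.05%. TAAT, which TAATTA contains, was at 28 of 39 (71.8%), against 66.4% of all nuclear pooled summits and 42.3% of the 189 nuclear thresholded ones. The xol-1 peak had TAAT but not TAATTA, and the dpy-28 peak had neither. GAGAGA was at 2 of 39 summits (5.13%), against 6.73% of all nuclear pooled summits, but within 100 bp it was at 7 of 39 (17.9%), against 12.6%. CGCGCA, which overlaps the X motif, was at 1 of 39 (2.56%), against 1.75%. The core of the TRA-1 site, TGGGTGGTC, was at 0 of 39, which allows a share of up to 7.69%, and at 0.0334% of all nuclear pooled summits.

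In the 101 bases around the summit, both thresholded peaks of the list had a higher GC content than the mean over its peaks. It was 45.5% for the strongest xol-1 peak and 58.4% for the strongest dpy-28 peak. The xol-1 value depends on the width, because those bases include both copies of CGCGCAGGG. Over the 300 bases printed for that peak the GC content was 33%. A weaker dpy-21 peak, 2282 bp upstream, also had 58.4%. In 101 bases, the GC content over all 39 pooled peaks averaged 34.3% ± 9.88 (SD), against 34.6% ± 7.90 for all nuclear pooled peaks and 47.0% ± 8.14 for nuclear thresholded peaks.

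The receptor gene sex-1 (WBGene00004786, X from 10201329 to 10205421, minus strand) had 3 pooled summits of moderate rank. The highest, in an intron 2114 bp downstream of the start, had 24.3 in the pooled list (rank 2240), 6.22 in replicate 1 and 17.8 in replicate 2. The summit 1444 bp upstream had 21.04 in the pooled list (rank 4335) and 17.1 in replicate 2. The one 3563 bp upstream had 17.1 in the pooled list (rank 9831) and 15.04 in replicate 2, and replicate 1 had neither of them. Replicate 1 instead had a summit 15 bp upstream of the start at 10.95 (rank 2968) that the pooled and replicate 2 lists lacked. The replicates thus placed their sex-1 peaks at different positions except for the intronic one.

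The 3 SDC genes had low to moderate peaks. For sdc-2 (WBGene00004746, X from 11522707 to 11533450, plus strand), which encodes the protein that directs the complex to X, pooled summits lay in coding sequence 7157 and 2807 bp downstream of the start, at 19.6 (rank 5883) and 17.97 (rank 8259). A further summit 268 bp upstream had 11.7 (rank 29313, close to the end of the list), with 8.92 in replicate 1 and none in replicate 2. The summit at 7157 bp had 10.7 in replicate 2 and none in replicate 1 within 200 bp, and its nearest start was that of C35C5.8. The summit at 2807 bp was in both replicates, with 9.86 in replicate 1 and 8.21 in replicate 2, and it also lies in the antisense RNA gene anr-16. Replicate 1 had a further sdc-2 summit 1469 bp upstream at 9.42 (rank 5360), with no pooled summit within 200 bp. For sdc-1 (WBGene00004745, X from 16275763 to 16282534, plus strand) the pooled summits had 21.8 at 4518 bp upstream (rank 3746) and 11.8 at 528 bp upstream (rank 28712), the nearer one with 8.23 in replicate 2 only. The distant one had 21.6 in replicate 2 (rank 775) and no replicate 1 summit within 200 bp, and its nearest start was that of ifa-3, 1176 bp away. This distant summit also lies in the antisense RNA gene W10G6.5. Without replicate 2, the highest sdc-1 peak was 6.41, in the 3' untranslated region. For sdc-3 (WBGene00004747, V from 15039148 to 15048207, minus strand) a pooled summit of 20.8 (rank 4574) lay in coding sequence 3718 bp downstream of the start and was in both replicates, at 10.04 in replicate 1 and 10.6 in replicate 2. A neighbouring one at 3484 bp had 15.4 in the pooled list (rank 14109) and 10.5 in replicate 2. No pooled summit lay upstream of sdc-3 within the window, although replicate 1 had one of 11.9 at 4353 bp, 30 bp from the start of fbxa-82, and replicate 2 one of 8.40 at 4978 bp.

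The condensin subunit genes differed from each other. The gene dpy-28 (WBGene00001087, III from 10763131 to 10777076, plus strand) had 8 pooled summits, more than any other listed gene. The strongest spans III from 10759074 to 10759423, with its summit 3882 bp upstream of dpy-28 and 58 bp from the start of tasp-1, a gene on the same strand that lies between the summit and dpy-28. Its signal was 84.8 in the pooled list, 30.7 in replicate 1 and 49.98 in replicate 2, at ranks 45, 66 and 41, and the replicate summits were 1 and 3 bp away. It ranked 20 of 189 nuclear thresholded peaks. The windows of 4 other protein-coding genes also held this summit, and when peaks were kept only for the gene with the nearest start, dpy-28 had no thresholded peak.

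The other dpy-28 summits were of moderate signal. On either side of the thresholded one, a summit 4538 bp upstream had 20.7 (rank 4631, with 7.35 in replicate 1 and 8.69 in replicate 2) and lay 71 bp from the start of K01G5.10. A summit 3336 bp upstream, in coding sequence of tasp-1, had 25.8 (rank 1707), with 8.79 in replicate 1 and 16.2 in replicate 2. The next, 1964 bp upstream in a tasp-1 intron, had 21.8 (rank 3695), with 9.89 in replicate 1 and 11.6 in replicate 2. All 3 were thus in both replicates and in or beside genes other than dpy-28. Within dpy-28 itself the summit 367 bp downstream of the start had 20.3 (rank 5088), with 6.26 in replicate 1 and 11.1 in replicate 2. The summit at 1024 bp, in coding sequence, had 17.3 (rank 9577), with 14.05 in replicate 2 only. Near the other end, in an intron, lay summits of 22.3 at 13062 bp (rank 3340, with 15.1 in replicate 2 only) and 11.9 at 13265 bp (rank 28249, in neither replicate).

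For dpy-27 (WBGene00001086, III from 3813018 to 3819679, minus strand) 6 pooled summits had signals of 11.6 to 14.8. In the 5000 bp windows this was the lowest strongest peak of the 10 genes, but with 1000 or 2000 bp upstream the strongest peaks of sdc-1 (11.8) and xol-1 (13.3) were lower, and with only nearest-start peaks that of sdc-1 was. A stronger summit of 21.7 (rank 3809) lay 839 bp beyond the 3' end of dpy-27, outside the window, with 9.46 in replicate 1 and 11.8 in replicate 2. The strongest within the window, 922 bp upstream of the start, had 14.8 in the pooled list (rank 15814) and 11.6 in replicate 2. Replicate 1 had a summit 685 bp upstream at 13.2 (rank 1367), 237 bp from the pooled one and so beyond the 200 bp used for matching. The summit 3065 bp upstream, in an intron of amx-1, had 14.45 (rank 17119), with 12.5 in replicate 2. Within the gene the summits had 11.6 at 404 bp (rank 29603), 11.8 at 2474 bp (rank 28507) and 12.0 at 5031 bp (rank 27568), all in coding sequence, and 13.4 at 6509 bp (rank 21223) in the 3' untranslated region. Of these the one at 2474 bp had 11.02 in replicate 2 only, the one at 6509 bp had 9.35 in replicate 1 only, and the others were in neither replicate. No pooled summit within the dpy-27 window was found in both replicates.

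The demethylase gene dpy-21 (WBGene00001080, V from 17936282 to 17949193, minus strand) had the strongest peak below the thresholded list. Its summit 2061 bp upstream had 29.6 in the pooled list (rank 951), 14.45 in replicate 1 (rank 910) and 15.1 in replicate 2 (rank 4373), within 1 bp of each other. The nearest start was that of Y59A8B.24, 695 bp away. Peaks closer to dpy-21 had 19.9 at 584 bp upstream (rank 5502) and 16.2 at 1129 bp downstream of the start (rank 11929), with 12.9 and 15.9 in replicate 2 and none in replicate 1 within 200 bp. The highest replicate 2 summit of dpy-21 was another one, at 404 bp upstream with 16.4. A summit 2282 bp upstream had 19.2 (rank 6381), with 13.6 in replicate 1 only, and one 3602 bp upstream had 15.3 (rank 14285) and was in neither replicate. In coding sequence 9678 bp downstream of the start a summit had 13.1 (rank 22547), with 8.96 in replicate 1 only. Replicate 1 had a higher summit at 10847 bp, also in coding sequence, at 11.02 (rank 2885), with no pooled summit within 200 bp. No listed gene had a peak between this 29.6 and the 84.8 of dpy-28, and the thresholded list ended at 43.6, with 43.5 as the highest pooled signal outside it.

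The genes her-1 and tra-1 had weak peaks. For her-1 (WBGene00001842, V from 9697015 to 9702035, plus strand) the summit in an intron 1176 bp downstream of the start had 17.5 in the pooled list (rank 9068), 7.71 in replicate 1 and 11.3 in replicate 2. The summit in the 3' untranslated region at 4755 bp had 15.7 (rank 13351), with 11.1 in replicate 1 only, and its nearest start was that of xbx-6. The 5000 bp upstream of her-1 held no pooled summit, while replicate 2 had summits of 11.4 at 632 bp and 10.3 at 2416 bp there and replicate 1 had none. A summit of 25.2 at 6286 bp upstream was outside the window and 207 bp from the start of rbx-1. For tra-1 (WBGene00006604, III from 11170890 to 11195201, minus strand), which has the longest window, the 4 pooled summits had 12.6 to 16.3. The highest, at 4853 bp upstream, had 16.3 (rank 11650), with 12.4 in replicate 2 and no replicate 1 summit within 200 bp. A summit 749 bp upstream had 12.6 (rank 24679), with 8.49 in replicate 2 only. In introns far downstream of the start lay summits of 12.6 at 16752 bp (rank 24648, with 11.4 in replicate 2 only) and 15.4 at 17411 bp (rank 14003, with 6.15 in replicate 1 only). None of the 4 was in both replicates, and the highest summit of replicate 2, 13.1 at 4118 bp upstream, and of replicate 1, 8.503 in an intron, had no pooled summit within 200 bp.

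**Figure D3:**
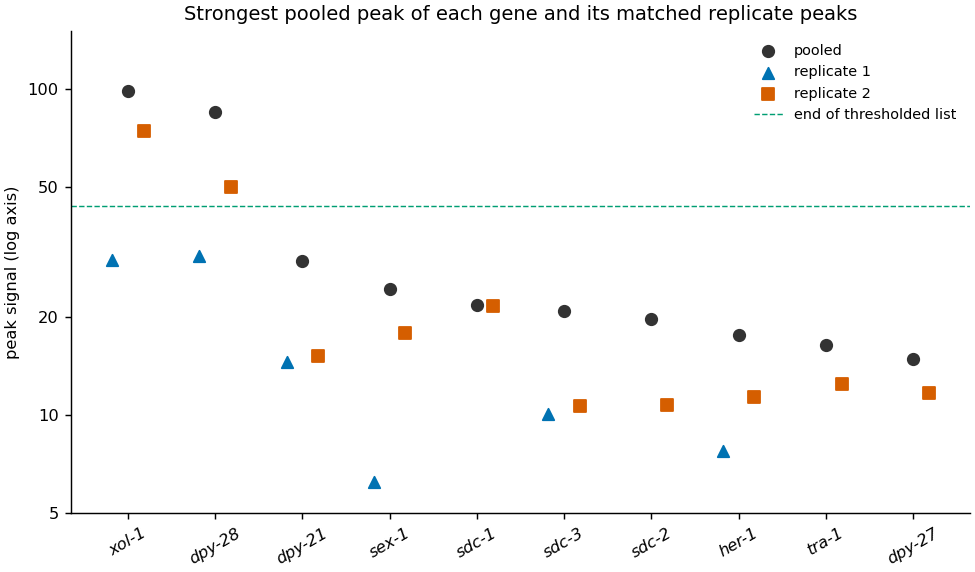
Signal on a log y axis of the strongest pooled peak of each gene (circles), ordered by that signal, with the replicate 1 (triangles) and replicate 2 (squares) summit within 200 bp where there was one. The xol-1 and dpy-28 peaks stand above the end of the thresholded list at 43.6, and sdc-1, sdc-2, tra-1 and dpy-27 have no replicate 1 point.

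Set beside all genes, the strongest pooled signal had a median of 21.3 over the 10 genes and 18.1 over the genes with a pooled peak, and 7 of the 10 were above that median. The windows of the 10 genes were longer, with a median of 12916 bp against 7027 bp, and a longer window can hold a stronger peak. The xol-1 value was above that of 99.9% of all genes, the dpy-28 value above 99.8% and the dpy-21 value above 92.7%, whereas her-1 (52.5%), tra-1 (44.5%) and dpy-27 (33.1%) were near or below the middle. These percentiles describe the pooled signal that was known when the genes were listed. They count genes with no pooled peak as lower, whereas the median of 18.1 leaves such genes out. Per 10 kb of window the genes had a median of 2.65 pooled peaks, against 2.90 for all genes. The density was 5.14 for dpy-27, 4.22 for dpy-28 and 3.71 for xol-1, and it was lowest for tra-1 at 1.36. Many peaks and a strong peak did not go together in every gene. In these windows dpy-27 had the highest density and a strongest peak of 14.8, the lowest of the 10, which other window rules gave to other genes.

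**Figure D4:**
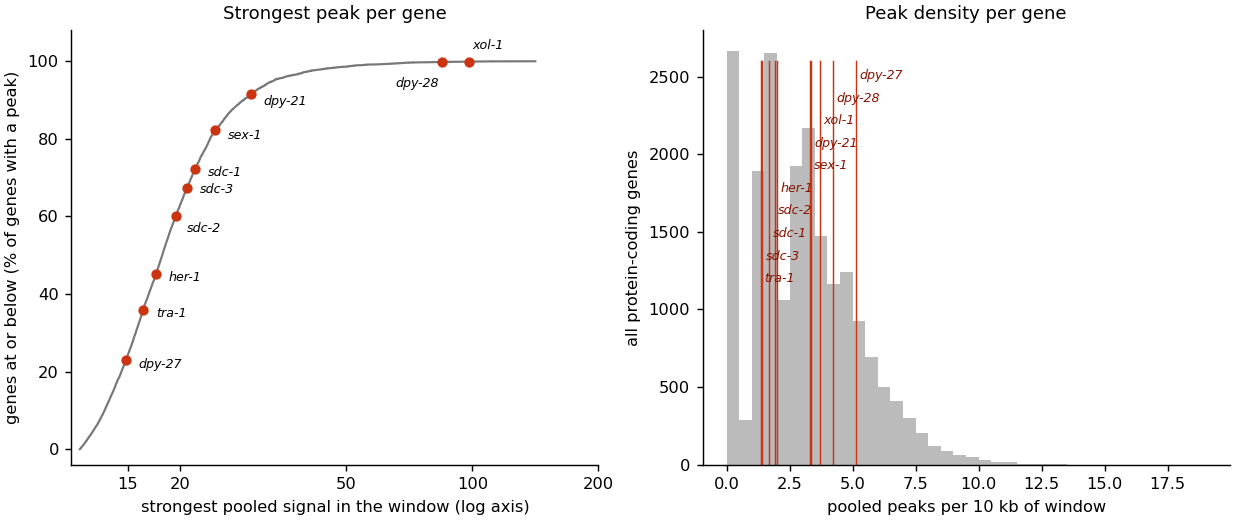
Left, the percentage of genes with a pooled peak (y axis) whose strongest pooled signal is at or below the value on the log x axis, with the 10 genes as points. Right, a histogram of pooled peaks per 10 kb of window over all 19973 genes, with the 10 genes as lines from 1.36 for tra-1 to 5.14 for dpy-27.

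By position, 19 of the 39 pooled summits were upstream of their gene, 9 in its coding sequence, 8 in its introns, 2 in its 3' untranslated regions and 1 in another exon. Within 1000 bp of the gene start lay 8 of them, in 7 of the genes. The nearest protein-coding start belonged to the listed gene for 25 summits and to another gene for 14, so an upstream peak may sit beside a neighbour, as at dpy-28, dpy-21 and sdc-1. Shares over all genes were not computed for these positions and nearest starts, so the counts describe the listed windows only. No summit was shared between windows of the 10 genes. Just inside the 5000 bp limit lay the xol-1 summit at 4901 bp (98.2) and the tra-1 summit at 4853 bp (16.3), and just outside it lay a dpy-28 summit at 5051 bp (12.04) and a sex-1 summit at 5499 bp (12.8).

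Most of the weaker summits were not found in both replicates. Of the 39 pooled summits, 11 had a summit within 200 bp in both replicate lists (28.2%, exact Clopper-Pearson 95% interval 15.001 to 44.9), against 19.3% of all nuclear pooled summits (18.9 to 19.8). A further 18 were matched in replicate 2 only, 6 in replicate 1 only and 4 in neither. The 11 include both thresholded peaks, for which a match in both replicates goes with the IDR selection. Outside the thresholded list, 18.8% of nuclear pooled summits were matched in both. Conversely, 24 of 42 replicate 1 summits and 12 of 42 replicate 2 summits in these windows had no pooled summit within 200 bp. The same share over all replicate summits was not computed, so these counts are not read as particular to the listed genes. The signals of these unmatched summits ran from 6.13 at tra-1 to 13.2 at dpy-27 in replicate 1, whose list has a median of 7.94. In replicate 2 they ran from 8.23 at sdc-1 to 13.1 at tra-1, and that list has a median of 10.8. By gene, tra-1 held 6 of the 24 in replicate 1, sdc-2 held 4, sdc-3 and dpy-21 held 3 each, xol-1 and dpy-27 held 2 each, and sex-1, sdc-1, dpy-28 and her-1 held 1 each. In replicate 2, tra-1 held 5 of the 12, sex-1 held 3, her-1 held 2, and sdc-1 and sdc-3 held 1 each. The 11 matched in both belonged to dpy-28 (5) and to xol-1, sex-1, sdc-2, sdc-3, dpy-21 and her-1 (1 each). At the xol-1 peak the replicate 2 signal was 2.48 times the replicate 1 signal and at the dpy-28 peak 1.63 times, against a median of 1.44 (quartiles 1.05 to 2.01) over 188 nuclear thresholded peaks found in both lists. Depth and scaling of the replicates are unknown, so the ratio is not a change in binding.

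A wider list of 26 pathway genes, chosen with results of these data known, held further subunits and regulators. A pooled summit was in the window of 24 of the 26, against 86.7% of all genes, and a thresholded summit in 1, against 1.8% of all genes. That gene was sup-26, which encodes an RNA-binding protein that represses tra-2. Its summit 2104 bp upstream (III from 4282153 to 4282502) had 51.5 in the pooled list (rank 135), 14.02 in replicate 1 and 35.1 in replicate 2. The median strongest signal was 19.3, against 18.1 over all genes with a peak. The genes after sup-26 were dpy-30, which encodes a subunit shared by dosage compensation and histone methylation complexes, at 37.2 (454 bp upstream, with 21.5 in replicate 1 and 15.95 in replicate 2), sea-2 at 36.4 (intronic, with 9.75 and 27.2), the condensin gene mix-1 at 32.9 (in coding sequence, 32.6 in replicate 2 and no replicate 1 match) and tra-2, which encodes the membrane receptor for HER-1, at 32.1. The nearest start to the mix-1 summit was that of M106.8, 3433 bp away, and to the tra-2 summit that of eif-2Bgamma, 957 bp away. The condensin genes dpy-26 and capg-1 had no pooled summit in their windows, and dpy-26 had 1 replicate 2 summit of 8.62. Among the 5 subunit genes of the dosage compensation condensin, strongest pooled signals therefore ran from none in the list for dpy-26 and capg-1, through 14.8 for dpy-27 and 32.9 for mix-1, to the 84.8 of the dpy-28 window. The mix-1 and dpy-28 summits were nearer to the starts of other genes, and under the nearest-start rule dpy-28 had 20.3.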

How the data were processed

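CEH-16 chromatin immunoprecipitation in L3 larvae was analysed from 2 replicates. The deposited ce11 peak lists give a signal per peak, the authors' value of unstated scale, and, in the place of a q-value, a score that falls below 0 for 98.4% of pooled peaks and was therefore not read as a probability. Per the labels, chromatin was sonicated and the assemblies were ce11 and ce10. A control entered the peak lists, per the text files deposited beside them, and is not analysed here. The aligner and caller are not given in the sources used here, and lists on ce10 were not used.

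Summits were placed in windows of genes from Ensembl release 115 (gene body and 5000 bp upstream, coordinates 1-based) and matched between lists within 200 bp. Words were searched on both strands within 50 bp of summits. The 10 genes, the wider list and the words were chosen with earlier results of these data known, and the wider genes named are those with a thresholded peak and the next 4 by pooled signal, with dpy-26 and capg-1 named after their values were seen. No hypothesis test was made, since there is 1 group. Intervals are exact Clopper-Pearson at 95%, and limits for a count of 0 use 3 counts. On simulated data, planted summits were given to their windows and matched when moved by less than the matching distance. Rejection of summits beyond that distance was not checked. Alternatives varied the window, the assignment rule, the matching distance, the ranking and the replicate used. Tables were handled with pandas 2.3.3 and numpy 2.4.6, intervals came from scipy 1.17.1, figures from matplotlib 3.10.9, all under Python 3.11.15.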

Additional observations from a re-analysis of the deposited data

How the results depend on the processing

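The thresholded count of 2 genes became 0 with 1000 bp or 2000 bp upstream and with the gene body only, and 1 (xol-1) when the nearest start had to be that of the gene. It was 2 with 1000 bp downstream added, with overlap of the peak interval and in the top 500 pooled peaks, and 3 in the top 1000, where dpy-21 joined. To leave out a replicate, the 214 strongest peaks of the other replicate list took the place of the thresholded list. IDR was not recomputed. The count was then 2 each time, xol-1 and dpy-28 in both, and all 10 genes had a peak in either full replicate list. Thresholding by IDR had already used the agreement of these replicates, so the repeated count is not an independent check. With the gene body only, 9 genes had a pooled peak, all but sdc-1. The 39 pooled peaks became 20 with the gene body only, 25 under the nearest-start rule and 25 in the stronger 50% of the list. The median strongest signal, 21.3, was 18.6 with 1000 bp or 2000 bp upstream, 17.5 with the gene body only, 21.7 with 1000 bp downstream and 18.9 under the nearest-start rule. The median rank of the strongest peak, 4160, was 22446.5 when ranked by the score column, which falls below 0 for most peaks. These settings add, remove or reorder peaks by construction. The lowest strongest peak, that of dpy-27 at 14.8, was that of sdc-1 at 11.8 with 1000 bp or 2000 bp upstream and under the nearest-start rule, and with 1000 bp downstream dpy-27 had 21.7. Of the words at the 39 summits, within 25 bp and 100 bp TAATTA was at 1 and 5, GAGAGA at 1 and 7 and CGCGCA at 1 and 2. The share matched in both replicates was 15.4% within 50 bp, 35.9% within 500 bp and 44% for the stronger 50% of the list. The longer word and other distances for it were chosen after seeing the data. They gave 7 thresholded X summits, and 13 to 14 X sites against 0 autosomal sites near a thresholded summit. No paired analysis was possible because there is 1 group. What read depth limits is not known, because the lists do not hold it.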
